A study of Mus musculus with 24 samples.

Results

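Motor neurons are few among the cells of the spinal cord, and 6 genes known to mark them or to encode the peptide CGRP are described here: Isl1, Mnx1, Chodl, Prph, Calca and Calcb. They were chosen by symbol and are 6 of the 55418 genes of the count table. The study sequenced RNA from lumbar spinal cord of 24 C57BL/6J mice, which were 8 to 10 weeks old at the start. Mice of either sex were wild-type or carried a knockout of Chrna7 limited to myeloid cells. Chrna7 encodes a subunit of a nicotinic acetylcholine receptor, and the Cre line or other driver of the knockout is not given in the labels. Each genotype and sex received either vehicle or paclitaxel, a cancer drug that stabilises microtubules, at 1 mg/kg in 4 injections. All cords were taken at day 7 after the first injection, and each of the 8 groups held 3 mice. The comparisons ask what the drug and the knockout do in the cord and whether the knockout alters the effect of the drug.

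Motor neurons of the ventral horn send axons out of the cord to muscle and release acetylcholine. Their identity is set during development by homeodomain transcription factors, of which Isl1 and Mnx1 (also called HB9) are the best known, and Isl1 also acts in the sensory neurons of the dorsal root ganglia. CGRP, the calcitonin gene-related peptide, is made by motor neurons and by many of the pain-sensing neurons of the ganglia, whose axons end in the dorsal horn. Calca makes either calcitonin or alpha-CGRP by alternative splicing, and Calcb makes beta-CGRP.

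Calca and Calcb lie on mouse chromosome 7 in opposite orientation, 82285 bases apart. Reads from their near-identical exon could be lost if they matched both genes, so the exon is shown for both. It holds the mature CGRP peptide. The sequences are those of GENCODE M21 transcripts on GRCm38, written 5′ to 3′ on the strand of the gene, and capitals mark the bases that differ or lie in a gap of the alignment. The exon of Calca is at chr7:114632443-114632599 (minus strand) and that of Calcb at chr7:114721975-114722134 (plus strand).
Calca: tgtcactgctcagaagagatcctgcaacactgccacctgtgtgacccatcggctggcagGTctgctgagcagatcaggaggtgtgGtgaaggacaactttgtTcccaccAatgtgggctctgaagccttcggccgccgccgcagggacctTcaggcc
Calcb: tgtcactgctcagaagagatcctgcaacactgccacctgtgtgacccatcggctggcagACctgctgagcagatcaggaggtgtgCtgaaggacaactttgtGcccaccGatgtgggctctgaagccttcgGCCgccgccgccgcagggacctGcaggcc
Of 160 aligned columns 151 were identical (94.4%), and 3 of the 9 that differed were gaps. The longest identical stretch of the exon pair was 59 bases, and that of any pair of their transcripts was 61 bases. A read longer than that stretch holds at least 1 base that tells the genes apart, and a shorter read inside it cannot be assigned to either.

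The upstream sequences of Isl1, Prph and Calca are shown next, because these genes were high together in the library described at the end, whereas Mnx1 and Chodl were low in it. Each is the 250 bases before the RefSeq start on GRCm38.p6, 5′ to 3′ on the strand of the gene. An entry was found for 5 of the 6 genes, and Calcb, also high in that library, had none. Capitals mark matches, on either strand, to TGACG, which is part of the cAMP response element, or to the TATA box letters TATAAA. These motifs were picked after the sequences were seen, so where they fall cannot test the split of the genes in that library. The windows are chr13:116309689-116309938 (minus strand) for Isl1, chr15:99054924-99055173 (plus strand) for Prph and chr7:114636358-114636607 (minus strand) for Calca.
Isl1: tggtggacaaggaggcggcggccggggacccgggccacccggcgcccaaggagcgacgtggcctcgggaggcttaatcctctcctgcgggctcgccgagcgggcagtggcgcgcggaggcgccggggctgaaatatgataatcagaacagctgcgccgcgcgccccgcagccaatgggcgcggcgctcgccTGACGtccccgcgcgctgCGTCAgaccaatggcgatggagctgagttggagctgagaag
Prph: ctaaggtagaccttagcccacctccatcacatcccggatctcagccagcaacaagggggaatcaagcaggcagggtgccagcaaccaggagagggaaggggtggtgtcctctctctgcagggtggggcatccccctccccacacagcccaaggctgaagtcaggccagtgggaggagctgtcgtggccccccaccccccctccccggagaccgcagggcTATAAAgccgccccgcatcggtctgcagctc
Calca: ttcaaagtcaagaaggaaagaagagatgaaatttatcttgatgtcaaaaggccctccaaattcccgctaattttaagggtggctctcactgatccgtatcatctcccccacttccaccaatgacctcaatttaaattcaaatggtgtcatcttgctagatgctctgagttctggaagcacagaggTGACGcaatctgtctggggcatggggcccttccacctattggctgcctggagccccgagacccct
TGACG began 59 bases before the start in Isl1, with a match on the other strand at 41, and 65 bases before the start in Calca. TATAAA began 31 bases before the start in Prph. The Prph window did not hold TGACG, and the Isl1 and Calca windows did not hold TATAAA. Of 32851 such windows 17.8% held TGACG and 12.4% held TATAAA. The whole palindrome TGACGTCA (1.55% of windows) and the homeodomain core TAATTA (4.84%) were in none of the 5 windows. Neither Mnx1 nor Chodl held any of these exact letters. Other forms of the TATA box were not searched, and the Chodl window, not shown, holds TATATAA close to its start. It therefore cannot be said to lack a TATA box. TGACG overlaps the palindrome by construction.

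Libraries held 88812295 to 112158154 counts (median 94343662). Chrna7, the targeted gene, was at 9.38 to 15.9 CPM in 11 wild-type and 9.09 to 14.5 CPM in 12 knockout cords (log2 fold change -0.11, SE 0.06, edgeR adjusted p = 0.9997), and since neurons also express it this does not check the genotype labels. A library labelled wild-type female paclitaxel replicate 3 resembled a sensory ganglion more than a cord, so it was left out of the group comparisons and is described separately at the end. The other 23 libraries are called cords below. In every cord the 17 other motor neuron genes on a marker list were above 0, and their summed level was 723 to 855 CPM, that is, counts scaled to a library of 1e6 counts. Fewer motor neurons and less RNA per motor neuron cannot be told apart in these whole-tissue samples.

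All 6 genes were expressed in every cord, at levels that spanned a wide range. Compared per length of exon, as RPKM (CPM per kilobase of exon), the median over the 23 cords was highest for Prph at 30.1 RPKM, followed by Calca at 23.6, Chodl at 11.1, Calcb at 9.93, Mnx1 at 1.28 and Isl1 at 0.698 RPKM. The order was nearly fixed within cords. Prph lay above Calca in 20 of 23 cords, and Chodl above Calcb in 20 of 23, so these neighbours overlapped in some cords. Calca lay above Chodl, Calcb above Mnx1, and Mnx1 above Isl1 in 23 of 23.

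The 6 genes varied more between cords than a typical gene did. The coefficient of variation of CPM was 22.2% for Calca, 17.3% for Mnx1, 16.7% for Prph, 15.05% for Isl1, 14.2% for Calcb and 11.9% for Chodl. Over the 15872 tested genes with a mean of at least 1 CPM the median was 7.80%, with quartiles of 5.65% and 12.3%. Calca varied more than 95.6% of these genes and Chodl more than 73.5%. Counting error made up little of the spread of the abundant genes: at their median counts it was 1.64% for Calca and 1.32% for Prph, against 6.29% for Isl1 and 6.00% for Mnx1. If both mates of a pair had been counted separately, it would be 8.89% for Isl1 and 8.48% for Mnx1.

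Isl1, the LIM homeodomain factor (chr13:116298281-116309689), had the lowest level of the 6 per length. Wild-type vehicle cords ranged from 2.07 to 3.42 CPM with a median of 2.58 (n = 6). The 5 wild-type paclitaxel cords lay at 2.31, 2.62, 2.76, 2.90 and 3.56 CPM. Knockout cords ranged from 2.47 to 3.495 CPM under vehicle (median 3.02, n = 6) and from 2.38 to 3.48 CPM under paclitaxel (median 2.73, n = 6). The 4 groups overlapped over most of their range.

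Mnx1, the homeodomain factor that holds motor neurons apart from interneurons (chr5:29473034-29478470), was also low. Wild-type vehicle cords ranged from 2.30 to 3.36 CPM with a median of 2.70 (n = 6), and the 5 wild-type paclitaxel cords lay at 2.88, 3.00, 3.29, 3.66 and 4.37 CPM. Every wild-type paclitaxel cord was thus above the vehicle median, while the ranges still overlapped. Knockout cords ranged from 2.60 to 4.22 CPM under vehicle (median 2.94, n = 6) and from 2.66 to 3.19 CPM under paclitaxel (median 2.84, n = 6). The knockout paclitaxel cords were the closest together of the 4 groups.

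Chodl encodes chondrolectin, a membrane lectin found in fast motor neurons (chr16:78930948-78951733). Its levels were 53.4 to 69.0 CPM in wild-type vehicle cords (median 58.6, n = 6). The 5 wild-type paclitaxel cords lay at 54.5, 55.2, 55.6, 70.7 and 78.85 CPM, so 3 sat low and 2 high. Knockout cords ranged from 58.2 to 68.8 CPM under vehicle (median 62.55, n = 6) and from 50.4 to 73.3 CPM under paclitaxel (median 63.8, n = 6). In both genotypes the paclitaxel cords spread more widely than the vehicle cords, with overlap.

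Prph encodes peripherin, an intermediate filament of neurons whose axons leave the central nervous system (chr15:99055174-99058978). Wild-type vehicle cords ranged from 53.75 to 78.45 CPM (median 57.1, n = 6). The 5 wild-type paclitaxel cords lay at 47.2, 59.0, 59.3, 70.55 and 99.9 CPM, and held both the lowest and the highest of all cords. Knockout cords ranged from 57.3 to 68.45 CPM under vehicle (n = 6) and from 58.5 to 73.0 CPM under paclitaxel (median 66.4, n = 6). The knockout groups overlapped.

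Calca (chr7:114631478-114636357) had the widest relative range, with its highest cord 2.56-fold above its lowest. Wild-type vehicle cords ranged from 24.5 to 44.6 CPM (median 38.5, n = 6), and the 5 wild-type paclitaxel cords lay at 24.9, 33.0, 39.2, 43.1 and 43.1 CPM. These ranges nearly coincided. Knockout cords ranged from 35.8 to 57.2 CPM under vehicle (median 40.4, n = 6) and from 29.03 to 62.7 CPM under paclitaxel (median 38.1, n = 6). In each knockout group 1 female cord stood above the rest.

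Calcb (chr7:114718643-114723365) was lower and steadier. Wild-type vehicle cords ranged from 9.25 to 13.2 CPM (median 10.6, n = 6), and the 5 wild-type paclitaxel cords lay at 9.88, 10.6, 12.3, 12.7 and 15.1 CPM. Knockout cords ranged from 10.7 to 13.7 CPM under vehicle (median 13.02, n = 6) and from 9.42 to 15.2 CPM under paclitaxel (median 12.8, n = 6). The wild-type vehicle group had the lowest median of the 4, and all groups overlapped. Per length, the ratio of Calca to Calcb was 1.89 to 3.22 in the 23 cords, with a median of 2.40.

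**Figure D1:**
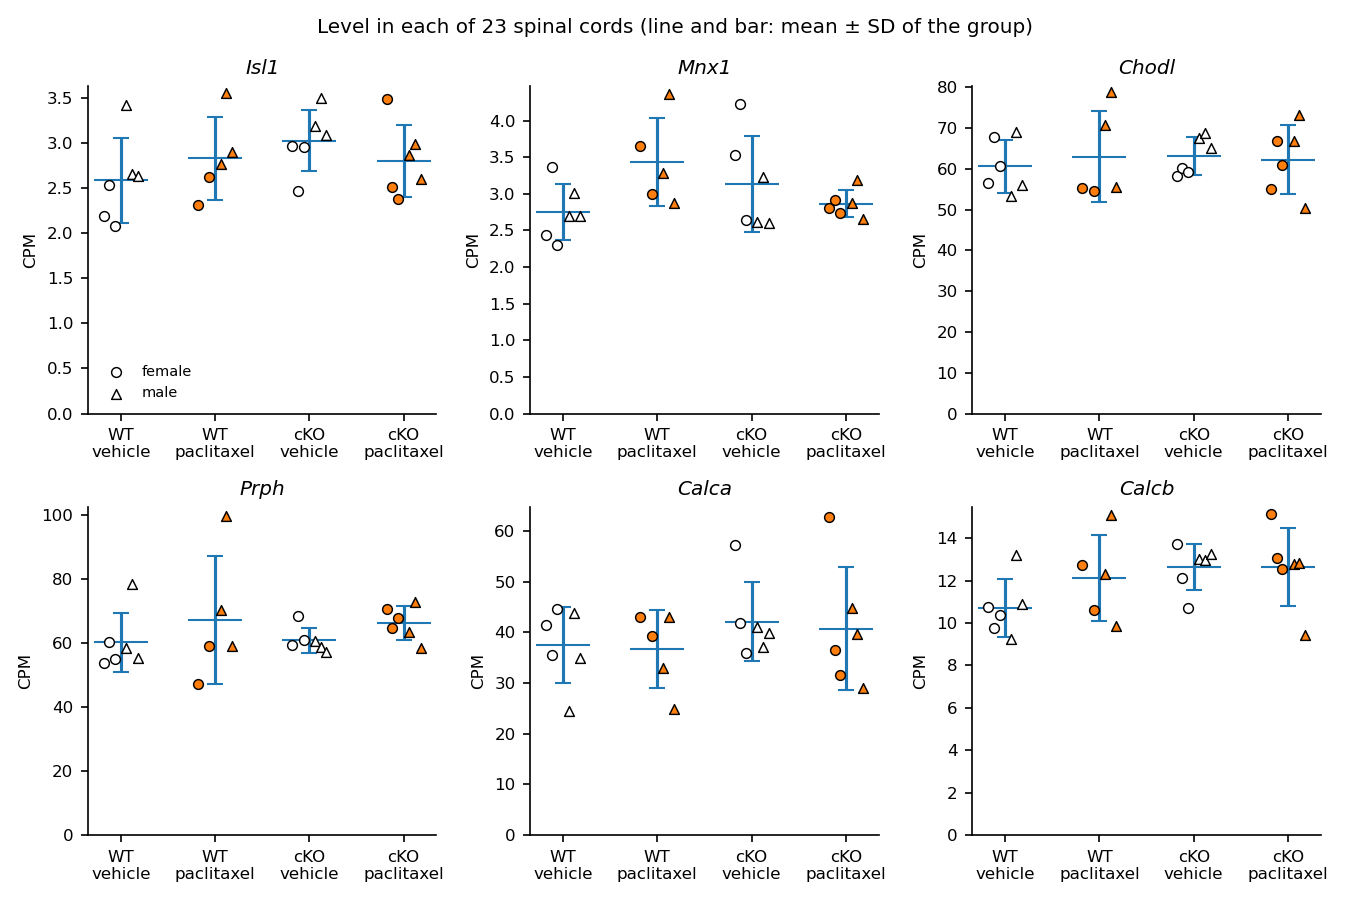
CPM (vertical axis, counts scaled by library total, starting at 0) of each of the 6 genes in the 23 cords, by genotype (WT, wild-type; cKO, Chrna7 knockout) and treatment. Circles are females, triangles males, filled symbols paclitaxel, and the blue line and bar give the mean ± SD of a group; the groups overlap for every gene, and the highest Prph cord, at 99.9 CPM, stands clear of the rest.

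None of the 6 genes passed the test for a change with paclitaxel. Over all animals the edgeR quasi-likelihood test called 0 of the 6, where 0.0197% of the 25372 genes tested were called at a Benjamini-Hochberg adjusted p under 0.05 over all of them. The log2 fold changes of paclitaxel against vehicle (n = 11 and 12) were 0.10 (SE 0.08) for Prph, 0.09 (SE 0.09) for Mnx1, 0.08 (SE 0.08) for Calcb, -0.01 (SE 0.08) for Isl1, -0.0043 (SE 0.07) for Chodl and -0.03 (SE 0.14) for Calca. Thus 3 were positive and 3 negative, with a median of 0.04, beside a median of 0.01 and 52.9% positive over all tested genes. The smallest edgeR adjusted p was 0.734, for Prph. No gene of the 6 had an unadjusted p under 0.05, and DESeq2 and limma voom called 0 as well.

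Within genotypes, Mnx1 came closest to a difference. In wild-type cords its mean was 3.44 ± 0.600 CPM under paclitaxel (SD, n = 5) and 2.75 ± 0.388 CPM under vehicle (n = 6). In knockout cords the order was the other way, at 2.87 ± 0.185 CPM under paclitaxel and 3.14 ± 0.657 CPM under vehicle (n = 6 each). The log2 fold change was 0.30 (SE 0.13) in wild-type, with an unadjusted p of 0.0267 and an edgeR adjusted p of 0.588. In knockouts it was -0.12 (SE 0.12, edgeR adjusted p = 0.781). The difference between these responses, the interaction of genotype and treatment, was -0.42 (SE 0.18) with an unadjusted p of 0.0253 and an edgeR adjusted p of 0.547, so it did not pass the test. By edgeR 0 of the 6 genes were called in wild-type (0.0% of all genes tested), in knockouts (0.0236%) or for the interaction (0.0%). Mnx1 was the only gene of the 6 with an unadjusted p under 0.05 in the first and the last of these, and there was none in knockouts. Over all tested genes the shares under 0.05 were 7.97% in wild-type, 11.3% in knockouts and 8.41% for the interaction. DESeq2 and limma voom called 0 of the 6 in each.

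With the low-count filter, the genotype made no called difference by edgeR, DESeq2 or limma voom. Comparing all knockout with all wild-type cords gave 0 called genes of the 6 by edgeR (0.0118% of all tested), 0 with an unadjusted p under 0.05, and an adjusted p of 0.9997 for each. Log2 fold changes ran from -0.04 (SE 0.09) for Mnx1 to 0.15 (SE 0.08) for Calcb, with 5 of 6 above 0 and a median of 0.08 beside -0.00072 over all tested genes. Under vehicle all 6 were higher in knockouts, with a median of 0.17 beside 0.0031 over all tested genes. In that comparison Calcb had 0.23 (SE 0.11, unadjusted p = 0.0445) and Isl1 0.22 (SE 0.11, unadjusted p = 0.0485), and the edgeR adjusted p of both was 0.911. Of all tested genes 5.20% had an unadjusted p under 0.05 there. Mean Calcb was 12.65 ± 1.09 CPM in knockout vehicle cords and 10.7 ± 1.37 CPM in wild-type ones (SD, n = 6 each). Mean Isl1 was 3.025 ± 0.339 against 2.585 ± 0.473 CPM in the same cords. Under paclitaxel the median was 0.05, with Mnx1 lower in knockouts at -0.25 (SE 0.13, unadjusted p = 0.064). By edgeR 0 of the 6 were called under vehicle (0.00788% of all tested) and 0 under paclitaxel (0.00394%, none with an unadjusted p under 0.05), and DESeq2 and limma voom called 0 in the 3 genotype comparisons. DESeq2 gave Calcb an unadjusted p of 0.0391 over all animals. Without the low-count filter edgeR called 1 of the 6 over all animals, Calca, at a log2 fold change of 0.14 and an adjusted p of 0.018, where 0.237% of the 41809 genes then tested were called. The SE of Calca was then 0.0347, against 0.144 with the filter at nearly the same fold change. The cause was not tested. The comparisons of treatment and of genotype share cords, so their values are not independent of each other.

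**Figure D2:**
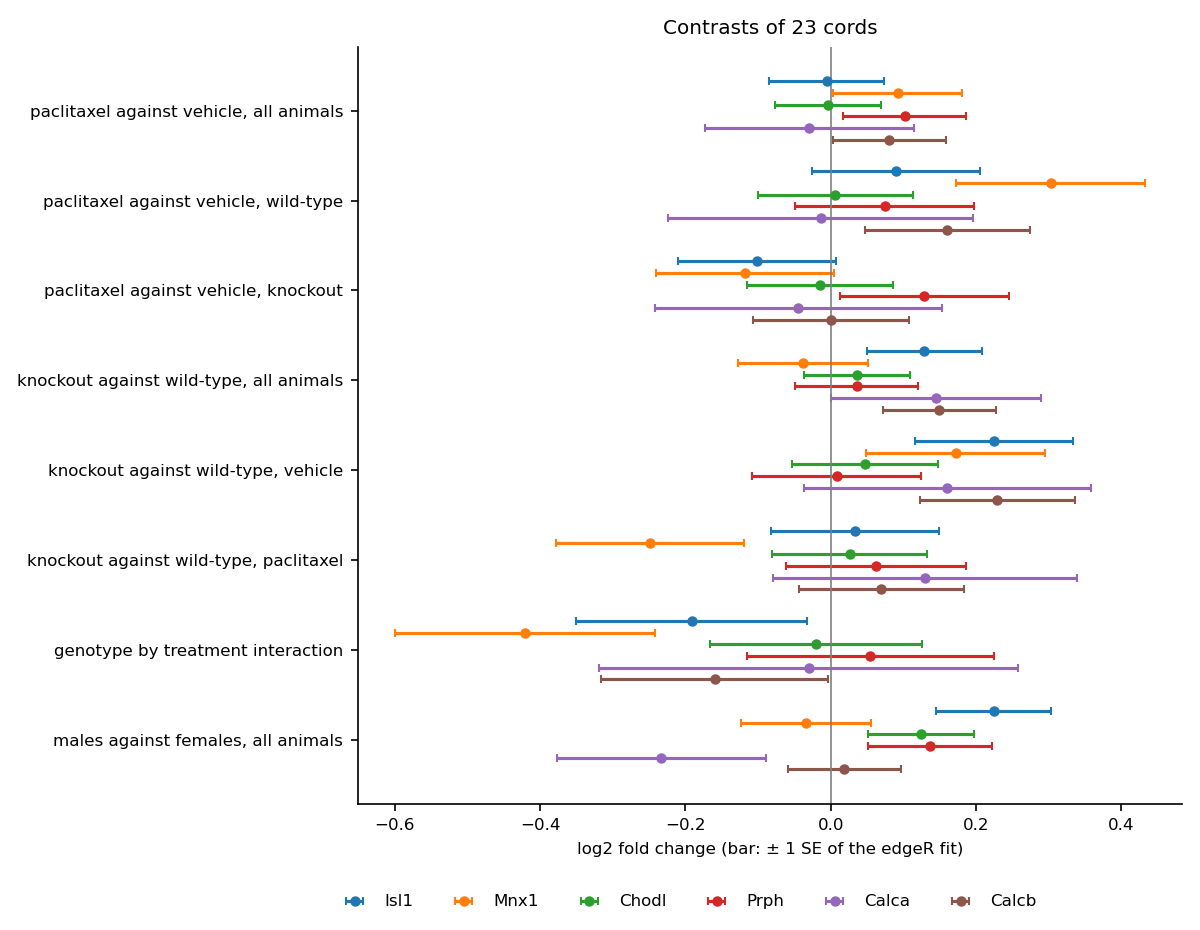
Log2 fold changes (horizontal axis) of the 6 genes in the 8 contrasts of the edgeR fit to 23 cords, with bars of 1 SE on either side; the interaction is the paclitaxel response of knockouts minus that of wild-type. None passed the adjusted threshold, and Mnx1 lies farthest from 0, at 0.30 in wild-type and -0.42 in the interaction.

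Of the 8 contrasts, that between the sexes gave Isl1 its smallest p. Males ranged from 2.60 to 3.56 CPM (median 2.94, n = 12) and females from 2.07 to 3.48 CPM (median 2.51, n = 11). All 12 males lay above the female mean, but the lowest only just, at 2.598 against 2.589 CPM, and the ranges overlapped. Males against females had a log2 fold change of 0.22 (SE 0.08), an unadjusted p of 0.0087 and an edgeR adjusted p of 0.185. Calca went the other way without passing, with 36.3 ± 7.10 CPM in 12 males and 42.7 ± 9.42 CPM in 11 females (SD; log2 fold change -0.23, SE 0.14, edgeR adjusted p = 0.528). Chodl had 0.12 (SE 0.07), Prph 0.14 (SE 0.08), Mnx1 -0.03 (SE 0.09) and Calcb 0.02 (SE 0.08). By edgeR 0 of the 6 genes were called, where 0.918% of all tested genes were. Isl1 alone had an unadjusted p under 0.05, beside 13.2% of all tested genes. DESeq2 (adjusted p of Isl1 0.0926) and limma voom also called 0. Without the low-count filter edgeR called 3 of the 6, Chodl, Prph and Calca, at adjusted p of 0.0131, 0.0037 and 8.07e-09. Their fold changes were 0.12, 0.14 and -0.23 as before, but their SE were 0.0327, 0.0327 and 0.0346. With the filter the SE were 0.07, 0.08 and 0.14, so the calls came with a smaller estimate of the spread. In that setting 1.79% of all tested genes were called, and the cause was again not tested.

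None of the other motor neuron genes on the list was called with paclitaxel or with the knockout. With paclitaxel over all animals, 0 of 17 were called by edgeR, 12 were positive and 5 negative, and the median log2 fold change was 0.02. Vipr2, a receptor for the peptide VIP, had the smallest p of them: 7.02 ± 1.03 CPM under paclitaxel against 6.16 ± 0.981 CPM under vehicle (SD, n = 11 and 12), a log2 fold change of 0.18 (SE 0.06) and an edgeR adjusted p of 0.324. Mmp9, a protease of fast motor neurons, had 0.12 (SE 0.06), and Isl2, the relative of Isl1, 0.21 (SE 0.11), at adjusted p of 0.473 and 0.526. Of the genes for the acetylcholine machinery, Chat, the synthetic enzyme, had -0.00053 (SE 0.04), Slc18a3, the vesicular transporter, 0.10 (SE 0.08), and Slc5a7, the choline transporter, -0.06 (SE 0.05). In knockout against wild-type 0 of 17 were called, 9 were positive, and the median was 0.02. There Chat had the smallest p, with 31.9 ± 2.91 CPM in 12 knockouts and 30.7 ± 4.08 CPM in 11 wild-type cords (SD; 0.09, SE 0.04, edgeR adjusted p = 0.9997), followed by Foxp1 at -0.07 (SE 0.03) and Esrrg at -0.06 (SE 0.03). The calls numbered 0 for these genes in the other paclitaxel and genotype contrasts too. Over all animals, unadjusted p lay under 0.05 for 2 of 17 with paclitaxel, beside 10.2% of all tested genes, and for 1 of 17 with the knockout, beside 3.36%. With paclitaxel in knockouts it did so for 4 of 17, beside 11.3% of all tested genes, and for the interaction for 4 of 17, beside 8.41%. Positive were 13 of 17 and 14 of 17, beside 50.65% and 48.3% of all tested genes. Such a lean in the interaction was not particular to motor neuron genes. Markers of oligodendrocytes were positive in 6 of 6 and of astrocytes in 5 of 6, with 3 under 0.05 in each. Dorsal horn excitatory markers were positive in 3 of 8 and sensory ganglion markers in 2 of 7.

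The receptor side of CGRP signalling showed no call either. CGRP binds a receptor of Calcrl, which spans the membrane, and Ramp1, the accessory protein that gives it specificity for CGRP. Calcrl lay at 20.7 to 28.4 CPM and Ramp1 at 61.1 to 84.2 CPM over the 23 cords. Paclitaxel against vehicle gave Calcrl a log2 fold change of 0.0048 (SE 0.04) and Ramp1 0.04 (SE 0.04), and knockout against wild-type gave -0.07 (SE 0.04) and -0.0017 (SE 0.04). Of the 9 genes of the receptor and calcitonin family, 7 passed the filter on low counts (Adm2 and Iapp did not), and edgeR called 0 of 7 in these contrasts, with 0 at an unadjusted p under 0.05. The smallest p were those of Ramp3 (0.14, SE 0.09) with paclitaxel and of Calcrl itself with the knockout. The medians of the 7 were 0.04 with paclitaxel and -0.0017 with the knockout. Of the 4 neurofilament partners of peripherin, Nefl had 0.07 (SE 0.03), Nefm 0.10 (SE 0.06) and Nefh 0.08 (SE 0.06) with paclitaxel, all 4 were positive, and edgeR called 0, the smallest adjusted p being 0.499. None of the 4 had an unadjusted p under 0.05 there. With paclitaxel in knockouts, with the knockout under paclitaxel and for the interaction, all 4 were positive as well. In each of these 1 of 4 had an unadjusted p under 0.05, beside 11.3%, 6.18% and 8.41% of all tested genes, and 0 were called. Only 2 of 4 were positive with paclitaxel in wild-type cords, and 1 of 4 with the knockout under vehicle.

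Vipr2 was the 1 gene of the motor neuron list called in any of the 8 contrasts, and the call was between the sexes. It was lower in males, at 5.94 ± 0.785 CPM (SD, n = 12) against 7.27 ± 0.916 CPM in females (n = 11), with a log2 fold change of -0.28 (SE 0.06) and an edgeR adjusted p of 0.0238. The adjusted p was 0.0515 without knockout female vehicle replicate 1, 0.0643 without wild-type female paclitaxel replicate 1 and 0.0626 without replicate 2 of that group. With all 24 libraries it was 0.875. Grp, a peptide gene of the dorsal horn list, was the other list gene called there, higher in males (log2 fold change 0.77, edgeR adjusted p = 1.67e-07; 0.394 with all 24 libraries).

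Across cords, 4 of the 15 pairs among the 6 genes correlated at an adjusted permutation p under 0.05 by Pearson r, and 2 by Spearman rho. Correlations were taken on log2 CPM with TMM scaling over 23 cords, with two-sided p from 100000 permutations of the cords and Benjamini-Hochberg adjustment over the 15 pairs. Calca and Calcb, the CGRP genes, had the highest Pearson r of 0.705 (adjusted permutation p = 0.0024) and a Spearman rho of 0.62 (adjusted permutation p = 0.0153). Without the 2 cords farthest from the median of Calca, r was 0.568. Chodl and Prph followed at r = 0.658 (adjusted permutation p = 0.00323; rho = 0.64, adjusted permutation p = 0.0153), with r = 0.532 without the 2 farthest cords. Calcb also went with Chodl at r = 0.563 and with Prph at r = 0.536, each with an adjusted permutation p of 0.0267. Their rho were 0.51 and 0.51 (adjusted permutation p = 0.0557 for both), and r without the 2 farthest cords was 0.383 and 0.552.

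The homeodomain pair did not pass. Isl1 and Mnx1 had r = 0.212 (adjusted permutation p = 0.387), and -0.181 without the 2 farthest cords, with rho = 0.10. Mnx1 and Prph came next to passing at r = 0.486 (adjusted permutation p = 0.058), but r was 0.133 without the 2 cords farthest from the median of Mnx1. Isl1 had its highest r with Prph at 0.433 (adjusted permutation p = 0.0893) and its lowest with Calca at 0.045.

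**Figure D3:**
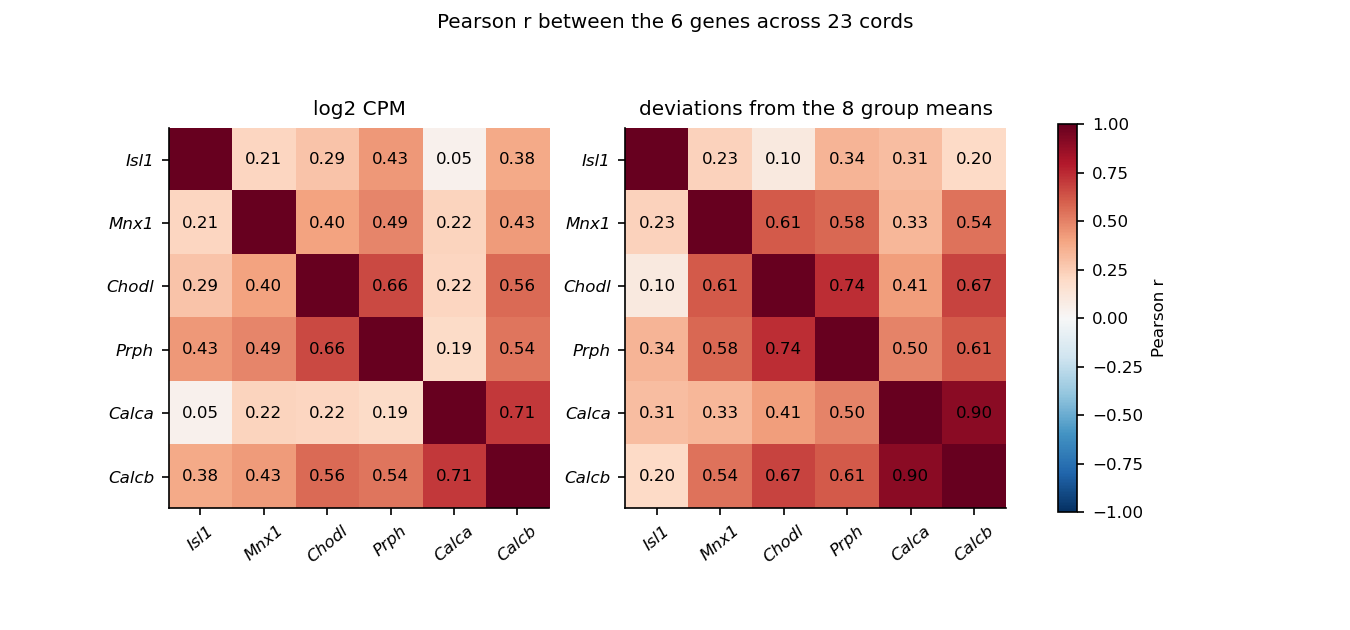
Pearson r (colour and number) for each pair of the 6 genes over 23 cords, on log2 CPM (left) and on deviations from the 8 group means (right). Calca and Calcb stand highest in both, at 0.71 and 0.90, and the row of Isl1 is the palest.

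The relations were also taken within groups. On deviations from the 8 group means, r was 0.904 for Calca and Calcb, 0.735 for Chodl and Prph, 0.673 for Chodl and Calcb and 0.614 for Prph and Calcb, and 8 of 15 pairs passed. Mnx1 then also passed with Chodl (0.611), Prph (0.577) and Calcb (0.544), and Prph with Calca (0.497). Within the sexes, Calca and Calcb had r = 0.583 in 11 females and 0.906 in 12 males. Chodl and Calcb had -0.222 in females and 0.947 in males, and Chodl and Prph 0.317 and 0.743. The differences between the sexes were not tested. Within genotypes, Calca and Calcb had 0.627 in 11 wild-type and 0.760 in 12 knockout cords, and Chodl and Prph 0.850 and 0.149. Within treatments, Calca and Calcb had 0.777 in 11 paclitaxel and 0.688 in 12 vehicle cords, and Chodl and Prph 0.766 and 0.427.

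A single cord weighed on several pairs. Wild-type male paclitaxel replicate 2 had the highest level of 4 of the 6 genes, Isl1 (3.56 CPM), Mnx1 (4.37 CPM), Chodl (78.85 CPM) and Prph (99.9 CPM), and lay above the median of the cords in all 6. Among the 17 other motor neuron genes it was the highest cord in 5, the lowest in 2 (Gfra1 and Aldh1a2) and above the median in 11. Its 6 Schwann cell markers had a median log2 ratio of -0.78 to the median cord, and its inhibitory interneuron and dorsal horn markers were at -0.01 and -0.07. Low Schwann cell markers were not particular to this cord. They were at -0.81 in knockout female paclitaxel replicate 3, with 2 of the 6 genes above the median of the cords. In knockout male paclitaxel replicate 3 they were at -0.67 (0 of 6), and in knockout male vehicle replicate 1 at -0.54 (5 of 6). The part of these markers in the correlations was not tested. Without this cord 1 of 15 pairs passed, Calca and Calcb, at r = 0.716. Chodl and Prph then had r = 0.527 (adjusted permutation p = 0.0837), Chodl and Calcb 0.473 (adjusted permutation p = 0.138) and Prph and Calcb 0.411 (adjusted permutation p = 0.217). Without knockout male paclitaxel replicate 3, Chodl and Calcb had r = 0.496 and did not pass. For the CGRP genes r stayed at 0.644 to 0.759 whichever cord was left out. Knockout female paclitaxel replicate 1 was the highest cord in both Calca (62.7 CPM) and Calcb (15.2 CPM), and wild-type male vehicle replicate 1 the lowest in both (24.5 and 9.25 CPM).

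**Figure D4:**
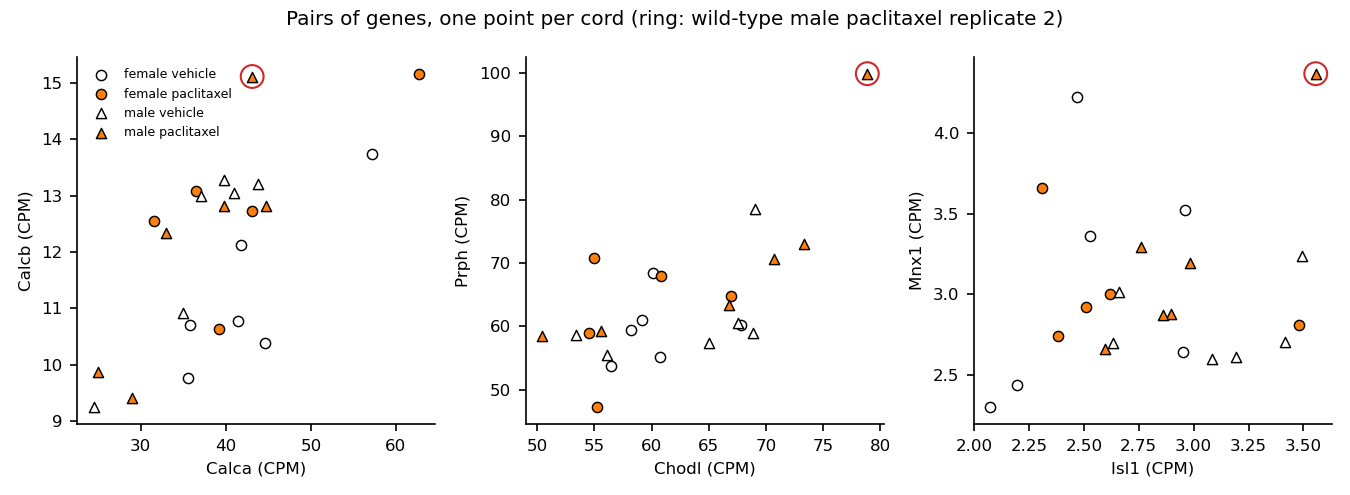
CPM of Calcb against Calca, Prph against Chodl and Mnx1 against Isl1, 1 point for each of 23 cords; circles are females, triangles males, and filled symbols paclitaxel. The ringed cord, wild-type male paclitaxel replicate 2, stands at the top right for Chodl with Prph (99.9 CPM of Prph) and for Isl1 with Mnx1, but not for Calca.

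The other genes whose levels were most like those of each of the 6 were named by the highest Pearson r among 15871 genes, as a description. Prph had the closest company: Palm3 (r = 0.90), Slc18a3 (0.87), Npas1 (0.85), Hspb1, which encodes a small heat shock protein (0.85), and Slc10a4, which encodes a protein of cholinergic vesicles (0.85). Calca was nearest to Uts2b (0.78), which encodes a urotensin-related peptide, then to Calcb (0.71), Slc5a7 (0.67), Clvs2 (0.65) and Uts2 (0.64). Calcb was likewise nearest to Uts2b (0.80), then to Spp1 (0.73), Armcx1 (0.71), Calca (0.71) and Cdk2ap1 (0.68). Chodl was nearest to Rnf128 and Ppp4r4 (0.74 each), Reep5 (0.72), and Palm3 and Mxd1 (0.70 each). Isl1 was nearest to Nfkbiz (0.81), Rpusd3, Icam1 and Maff (0.78 each) and Paxx (0.73). None of these is on the motor neuron list, and the same holds for the genes named for Mnx1, Chodl and Calcb. Mnx1 was nearest to Rarres1, Rheb (0.79 each), Dut, Cacng8 (0.78 each) and Adra2c (0.77). Without wild-type male paclitaxel replicate 2 the first of these values were 0.81 for Prph, 0.81 for Calca, 0.76 for Calcb, 0.68 for Chodl, 0.78 for Isl1 and 0.70 for Mnx1.

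The 6 genes were also set against the other motor neuron genes as a group. The relation of each gene to the mean log2 level of a marker list was tested for 4 lists, which makes 24 relations, of which 1 passed by Pearson r and 2 by Spearman rho. Prph and the motor neuron list had r = 0.759 (adjusted permutation p = 0.00072; rho = 0.79, adjusted permutation p = 0.00072), with r = 0.673 without the 2 cords farthest from the median of Prph. It was 0.765 in 11 females and 0.842 in 12 males, and 0.838 in 11 wild-type and 0.699 in 12 knockout cords. Within treatments r was 0.889 in 11 paclitaxel cords and lower, 0.471, in 12 vehicle cords. Chodl had r = 0.551 with that list (adjusted permutation p = 0.0786) and passed by rank, with rho = 0.60 (adjusted permutation p = 0.0338). Its r was 0.949 in 11 wild-type but -0.039 in 12 knockout cords, and this difference was not tested. Calcb had r = 0.428 (adjusted permutation p = 0.327). Mnx1 had r = 0.34, Calca 0.322 and Isl1 0.182, with adjusted permutation p of 0.655 or more. No relation to the lists of sensory ganglion neurons, dorsal horn excitatory neurons or Schwann cells passed. By Pearson r, Chodl passed with the motor neuron list without knockout female paclitaxel replicate 1 (r = 0.66) or knockout male vehicle replicate 3 (r = 0.66), and Calcb without the latter (r = 0.565, adjusted permutation p = 0.0494).

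The 1 library set aside split the 6 genes into 2 sets. In the library labelled wild-type female paclitaxel replicate 3, which held 94765907 counts, Calca stood at 1546 CPM (24.5 to 62.7 in the cords), Prph at 1319 CPM (47.2 to 99.9), Calcb at 128 CPM (9.25 to 15.2) and Isl1 at 128 CPM (2.07 to 3.56). These are 38.9-fold, 21.9-fold, 10.2-fold and 46.3-fold the median cord. Mnx1 stood at 0.116 CPM, from 11 counts, and Chodl at 8.03 CPM, below every cord, with log2 ratios to the median cord of -4.63 and -2.92. So 4 of 6 were over 4-fold higher, beside 4.93% of all genes compared, and 2 of 6 over 4-fold lower, beside 11%. It is 1 library, so these ratios have no replicate check.

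**Figure D5:**
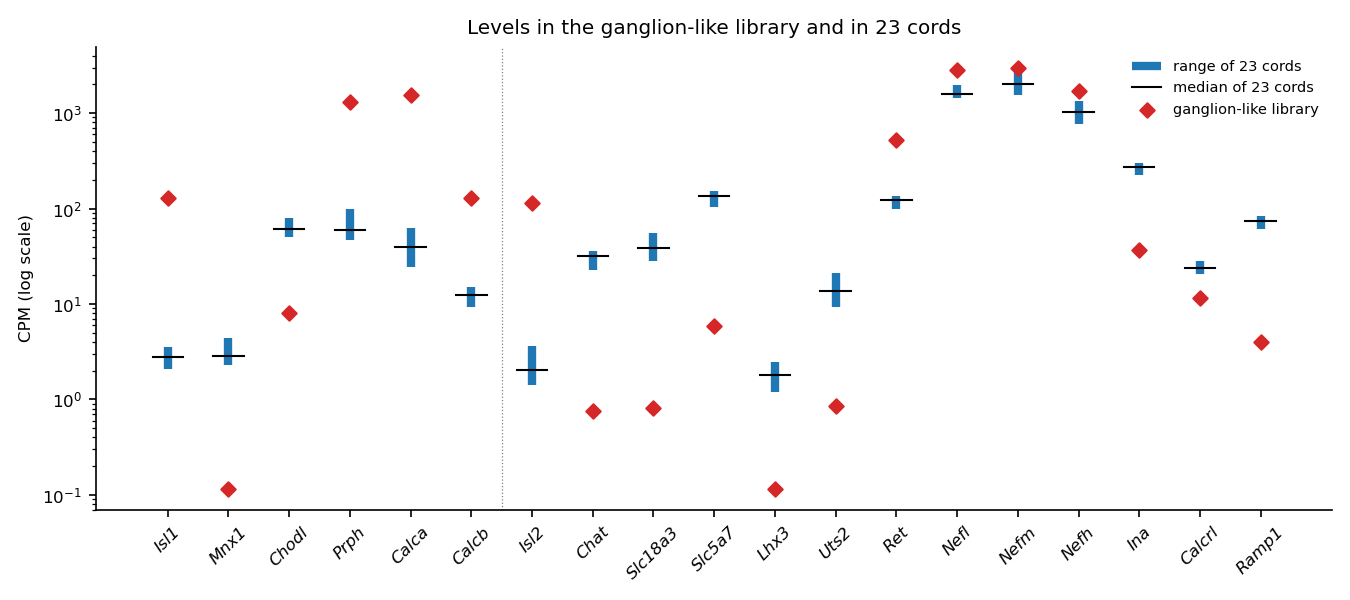
CPM (log scale) of the 6 genes, left of the dotted line, and of related genes in the library set aside (red diamonds) against the range (blue bars) and median (black line) of the 23 cords. Isl1, Prph, Calca and Calcb lie above all cords, and Mnx1 (0.116 CPM) and Chodl (8.03 CPM) below all cords, with Chat, Slc18a3, Slc5a7 and Lhx3.

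The ratios between related genes moved as well. Per length, Calca stood 9.06-fold above Calcb in that library, against 1.89-fold to 3.22-fold in the cords. Isl1 stood at 626 times Mnx1 per length, against 0.332 to 0.719 in the cords. Isl2, which like Isl1 is expressed in both motor and sensory neurons, was at 113 CPM, 55.4-fold the median cord. The cholinergic genes were low: Chat lay at 0.749 CPM (22.7 to 36.3 in the cords), Slc18a3 at 0.823 CPM (28.5 to 55.0) and Slc5a7 at 5.91 CPM (103 to 152). Lhx3, a homeodomain partner of Isl1 in motor neurons, was at 0.116 CPM against 1.20 to 2.45. Of the 17 motor neuron genes 4 lay above all cords (Isl2, Ret, Gfra1 and Tns1), 12 below and 1 within. Their sum was 1234 CPM, above the 723 to 855 CPM of the cords, so the sum alone does not measure motor neurons. Nefl, Nefm and Nefh were above every cord, and Ina, the neurofilament partner typical of central neurons, was below at 37.2 CPM against 225 to 297. The receptor genes Calcrl and Ramp1 were below every cord, at 11.6 and 3.97 CPM.

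Markers of other cells in that library moved with these values. All 8 sensory ganglion genes, all 6 Schwann cell genes and all 7 skeletal muscle genes lay above every cord. All 6 inhibitory interneuron, all 6 astrocyte and all 6 oligodendrocyte genes lay below, and of the 8 dorsal horn excitatory genes 2 lay above, 5 below and 1 within. The summed ganglion markers were 2633 CPM, against 10.5 to 12.6 CPM in the cords. In the cords Scn10a, the sodium channel of nociceptors, reached at most 0.728 CPM, and Mrgprd at most 0.0832 CPM. Both highest values were in knockout male vehicle replicate 2. Ganglion markers of that cord had a median log2 ratio of 0.70 to the median cord, and the next cord was at 0.18. Summed over the list, the ganglion markers had medians of 11.4 CPM in wild-type paclitaxel, 11.55 CPM in wild-type vehicle, 11.1 CPM in knockout paclitaxel and 11.75 CPM in knockout vehicle cords. Pou4f1, with a median of 7.20 CPM over the cords, weighed most in these sums, so they say little about the rarer markers.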

How the data were processed

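RNA from lumbar cord of 24 mice, 3 per group, was sequenced with Illumina reads, per the labels' protocols. The authors deposited raw counts for each gene symbol, with no normalization. Per the submitters' processing notes, STAR (version: not given in the sources used here) aligned the reads, and featureCounts 1.6.2 made the counts. Exons of Ensembl release 96 (GRCm38) were summed by gene name without strand and without a read-pair option, per the file headers. Among genes with 1 to 20 counts, 34.4 to 37.3% of counts were odd, so both mates of many pairs were probably counted. No exon of the 6 genes overlaps another gene in that annotation.

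Levels are CPM from library totals. Models were fitted with edgeR 4.0.16 (TMM, filterByExpr, robust quasi-likelihood, 8 group means) in R 4.3.3 to 23 libraries, tested on simulated data, with limma 3.58.1 (voom) and DESeq2 1.42.0 beside them. Log2 fold changes come from this fit. Correlations used log2 CPM with a prior count of 2. The other alternatives were all 24 libraries, RLE factors, no low-count filter, the replicate block, and leaving out each cord. The lists were motor neuron, CGRP receptor and neurofilament genes, and markers of ganglion neurons, dorsal horn excitatory neurons, inhibitory interneurons, Schwann cells, muscle, astrocytes and oligodendrocytes. The 6 genes and these lists were chosen with earlier results of these data known, and the motifs after the sequences were seen. Of list genes, those called, those with the 3 smallest p in the treatment and genotype contrasts over all animals, and Chat, Slc18a3, Slc5a7, Calcrl and Ramp1 were open to be named. Other genes named in the library set aside, and by cord, were picked after their values were seen. No batch or date is given in the labels. Replicates of a group differed by more than sampling noise (lowest chi-square per degree of freedom 8.99).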

Additional observations from a re-analysis of the deposited data

Results flagged for a closer look

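In 3 of 24 groups of 5 or 6 cords tested (6 genes in 4 groups of genotype and treatment), the highest cord stood apart from the rest by Dixon's 95% limit, and chance flags about 1 in 20 groups. Prph was 78.45 CPM in wild-type male vehicle replicate 2, with the next cord of the wild-type vehicle group at 60.25 CPM. In the knockout vehicle group Prph was 68.45 CPM in female replicate 2 (next 61.0 CPM), and Calca was 57.2 CPM in female replicate 1 (next 41.75 CPM). A signal above every cord was seen in the library kept out of the comparisons: 127.9 CPM of Isl1 (highest cord 3.56), 1319 CPM of Prph (99.9), 1546 CPM of Calca (62.7) and 128.1 CPM of Calcb (15.2).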

How the results depend on the processing

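The count of the 6 genes called was 0 in each of the 8 contrasts with all 24 libraries, RLE factors, DESeq2, limma voom and the replicate block, and in all 23 fits that left out 1 cord. Without the low-count filter it was 1 in knockout against wild-type over all animals and 3 between the sexes. Over all genes, calls with paclitaxel over all animals numbered 5 by edgeR, 158 by DESeq2, 338 without the filter, 9 with the replicate block and 0 with 24 libraries. In knockouts they were 6, 126 by DESeq2, 470 without the filter and 0 with 24 libraries, and in wild-type 0, 4 by DESeq2 and 254 without the filter. Between the sexes they were 233, 583 by DESeq2, 749 without the filter and 28 with 24 libraries. For knockout against wild-type they were 3 (99 without the filter, 5 by DESeq2), 2 under vehicle (111 and 4) and 1 under paclitaxel (215 and 3), and for the interaction 0 (366 without the filter). The labels do not say that a replicate number pairs animals. Deviations of same-numbered libraries correlated at a mean of 0.0169 (77 pairs) and others at -0.0084 (154 pairs), and 13 of 23 libraries were closest to their own number. Each library had 3 replicate numbers to be closest to, so an even draw would give fewer than 13 of 23. The excess was not tested, and the main fit holds no replicate term. With the replicate block, Prph, Chodl and Isl1 had an unadjusted p under 0.05 between the sexes, 3 of the 6 genes against 1 without it, and the SE was 0.06 for Prph and 0.05 for Chodl. Of all 25372 tested genes 3457 did so with the block and 3339 without it.

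Pairs that passed numbered 4, 8 on deviations from group means, 15 with all 24 libraries, and 1 to 6 when each cord was left out. Relations to marker lists that passed numbered 1, 2 on deviations, 24 with all 24 libraries and 1 to 3 when each cord was left out. The counts on deviations may be too high, because the permutations did not allow for the group means removed. With all 24 libraries r took the sign set by the 1 added library. It was -0.944 for Isl1 and Mnx1, -0.930 for Isl1 and Chodl, -0.915, -0.918 and -0.903 for Mnx1 with Prph, Calca and Calcb, and -0.891, -0.908 and -0.880 for Chodl with the same 3. With the motor neuron list r was -0.942 for Isl1, -0.894 for Prph, -0.908 for Calca and -0.899 for Calcb. With the ganglion list it was -0.961 for Mnx1, 0.956 for Prph, 0.953 for Calca and 0.952 for Calcb. With the dorsal horn list it was -0.861 for Isl1 and 0.812 for Chodl, and with the Schwann cell list 0.836 for Isl1, 0.807 for Prph, 0.811 for Calca and 0.781 for Calcb. The position of the 6 genes in that library was the same with TMM factors, against the mean cord and against the 5 wild-type paclitaxel cords. Mnx1 and Isl1, at 194 to 409 counts per cord, are limited most by depth.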
